A study of Homo sapiens with 18 samples.

Results

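Cytosolic ribosomal protein genes encode the protein part of the cell's ribosomes, and their promoters were examined here in MOLM-13 cells by Cut&Tag for 4 histone modifications. The genes were chosen by symbol from the protein-coding genes of GENCODE on hg38: RPL or RPS followed by digits and at most one of A, X or L, together with RPLP0, RPLP1, RPLP2 and RPSA. This gave 81 of 20046 protein-coding genes, of which 31 encode proteins of the small (40S) subunit, 46 proteins of the large (60S) subunit and 4 are the paralogs RPL3L, RPL10L, RPL39L and RPS27L. For each modification the interval standing for a gene was that of largest mean count which reached to within 2 kb of any annotated transcription start site (TSS) of the gene. MOLM-13 is an established line of KMT2A-rearranged acute myeloid leukemia. The cells received either DMSO, the diluent, or 100 nM PR-957 (ONX-0914), which inhibits the immunoproteasome subunit PSMB8. The labels give 72 h of treatment, whereas a legend of the paper gives a shorter time for Cut&Tag. H3K4me3, H3K27ac, H3K4me1 and H3K27me3 were each measured in 2 libraries per treatment, which makes 16 of the 18 samples, the other 2 being IgG controls that were not used here. No source states that the libraries of a group came from separate cultures, so that p-values measure the spread between these libraries, which may be technical.

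A ribosome is assembled from a 40S subunit, which reads the mRNA, and a 60S subunit, which joins amino acids, and cells make the proteins of both in near equal amounts. The genes are among the most strongly transcribed in dividing cells. Their mRNAs typically begin with a cytosine followed by a tract of pyrimidines, the 5′ terminal oligopyrimidine (TOP) motif, through which mTOR signaling controls their translation. At active genes H3K4me3 and H3K27ac mark the promoter, H3K4me1 mostly marks enhancers and the flanks of promoters, and H3K27me3 marks genes repressed by Polycomb.

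The sequence around the start that sets these promoters apart from others is the pyrimidine tract, shown here for the genes with the smallest p-values in H3K27ac (RPL4, RPSA, RPL9), for 3 genes called in H3K4me1 (RPL19, RPS28, RPL28), for RPS6, RPS14 and RPL39, and for 2 paralogs without such a tract (RPL10L, RPS27L). Each line gives the 35 bases before the RefSeq start and the 25 bases from it on (GRCh38.p14), 5′ to 3′ on the gene's strand, with the unbroken run of C and T of at least 8 bases that begins within 10 bases of the start in capitals.
RPL4 (chr15:66504831-66504890, minus strand): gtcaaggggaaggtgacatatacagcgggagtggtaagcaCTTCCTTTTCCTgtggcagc
RPSA (chr3:39406685-39406744, plus strand): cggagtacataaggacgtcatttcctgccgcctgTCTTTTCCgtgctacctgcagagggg
RPL9 (chr4:39458898-39458957, minus strand): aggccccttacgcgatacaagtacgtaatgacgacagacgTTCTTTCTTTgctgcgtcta
RPL19 (chr17:39200288-39200347, plus strand): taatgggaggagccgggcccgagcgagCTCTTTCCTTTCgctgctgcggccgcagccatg
RPS28 (chr19:8321461-8321520, plus strand): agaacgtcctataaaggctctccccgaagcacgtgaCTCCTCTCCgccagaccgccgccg
RPL28 (chr19:55385897-55385956, plus strand): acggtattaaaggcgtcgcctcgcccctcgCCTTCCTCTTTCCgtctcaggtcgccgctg
RPS6 (chr9:19380212-19380271, minus strand): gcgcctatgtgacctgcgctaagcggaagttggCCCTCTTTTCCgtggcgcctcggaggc
RPS14 (chr5:150449715-150449774, minus strand): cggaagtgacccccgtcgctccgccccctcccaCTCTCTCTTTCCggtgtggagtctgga
RPL39 (chrX:119791606-119791665, minus strand): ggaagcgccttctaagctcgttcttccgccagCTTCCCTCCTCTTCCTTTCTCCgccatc
RPL10L (chr14:46651757-46651816, minus strand): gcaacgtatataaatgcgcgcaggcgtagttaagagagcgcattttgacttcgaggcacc
RPS27L (chr15:63157453-63157512, minus strand): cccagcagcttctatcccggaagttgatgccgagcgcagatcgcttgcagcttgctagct

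A run of this kind was found in 53 of the 64 ribosomal protein genes that have a promoter window in the RefSeq table, or 82.8%, against 13.0% of all 27305 genes of that table. These 27305 genes, a larger set than the 20046 protein-coding genes used elsewhere, are meant by all genes in this paragraph. Where a gene has several windows, the one with the longest run is shown. The median length of the longest run of any size beginning there was 11.5 bases in the ribosomal protein genes and 4 bases in all genes. Within 50 bases of the start, on the sense strand, CTCTTTCC was present in 17.2% of the ribosomal protein genes and 0.681% of all genes, and CTTTTCC in 17.2% and 1.77%. In the window from 250 bases before to 50 bases after the start, CCGGAAG, the core of many ETS factor sites, was present on either strand in 35.9% and 12.2%, and AAGATGGC, a YY1-like word, in 9.38% and 3.52%. TATAAA was present in 9.38% and 14.0%. The words were searched separately, and none contains another. A match describes the letters of the window only.

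H3K4me3 and H3K27ac were found at nearly all of these genes, H3K4me1 at fewer and H3K27me3 at 1. An H3K4me3 interval represented 76 of the 81 genes and an H3K27ac interval 75, compared with 12795 and 12094 of all 20046 protein-coding genes. For H3K4me1, 57 ribosomal protein genes and 8702 genes in all had an interval. H3K27me3 was listed near RPL38 alone, in an interval that ended 1042 bp upstream of its canonical TSS, and near 3976 genes in all. RPS18, RPL7A, RPS25, RPS9 and the retrogene RPL10L had neither H3K4me3 nor H3K27ac intervals.

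The absent intervals at 4 of these genes extended far beyond the genes themselves. No interval of any of the 4 modifications lay within 838 kb around RPS18, 331 kb around RPL7A, 155 kb around RPS25 and 1069 kb around RPS9. These stretches hold the canonical TSS of 36, 13, 9 and 42 protein-coding genes, the ribosomal protein gene included. What the absent intervals at whole neighborhoods derive from was not tested, so that no statement on the state of RPS18, RPL7A, RPS25 and RPS9 can be drawn from them.

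Counts were expressed per 1000000 counts of edgeR's effective library size (CPM) and divided by the width of the interval to compare genes. The median H3K27ac level of the 75 genes was 6.30 CPM per kb, against 3.99 CPM per kb over all genes with an interval, and 64 of the 75 genes lay above the latter value. For H3K4me3 the median was 4.60 CPM per kb against 4.57 CPM per kb, with 38 of 76 genes above it. The H3K4me3 intervals were wider instead, with a median of 6.55 kb against 4.00 kb over all genes, and 74 of 76 were wider than the median of all genes. Over the whole interval the median H3K4me3 signal was thus 31.1 CPM against 19.5 CPM. H3K27ac intervals measured 6.06 kb against 3.15 kb. For H3K4me1 the median level was 0.958 CPM per kb, below the 1.29 CPM per kb of all genes.

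RPL7, a 60S protein, had the highest level of both modifications. Its H3K4me3 signal was 174 and 184 CPM in DMSO and 182 and 186 CPM in PR-957, or 22.4 CPM per kb, and its H3K27ac level was 24.7 CPM per kb. The RPL7 interval also holds a TSS of RDH10. For H3K4me3 the next were RPL8 (12.9 CPM per kb) and RPL30 (12.1 CPM per kb), likewise 60S proteins. All of these lie on chromosome 8, where the median H3K4me3 level of all 422 genes with an interval was 8.06 CPM per kb. Among the lowest were RPS4X (1.70 CPM per kb) and RPS27 (2.05 CPM per kb), both of the 40S subunit. RPS4X, RPL36A, RPL39 and RPL10 lie on chromosome X, had a median of 2.51 CPM per kb, and the 386 genes of that chromosome one of 2.67 CPM per kb. At the genes named on chromosomes 8 and X, the H3K4me3 level thus ran with that of the chromosome. The 11 ribosomal protein genes of chromosome 19 had a median of 4.65 CPM per kb, against 4.80 CPM per kb over all its genes. What sets the order of the levels was not tested.

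For H3K27ac, RPL7 was followed by RPL21 (14.2 CPM per kb) and RPL8 (13.7 CPM per kb), and the lowest were RPS24 (2.07 CPM per kb), RPS4X (2.43 CPM per kb) and RPS21 (3.36 CPM per kb). RPS24, which is mutated in some patients with Diamond-Blackfan anemia, gave 9.84 and 9.98 CPM in DMSO and 8.25 and 7.81 CPM in PR-957. The levels of H3K4me3 and H3K27ac ran in a similar order over the 75 genes with both (Spearman's rho 0.65, across genes measured in the same cells, which are not independent replicates), whereas H3K4me1 did not follow H3K4me3 over 56 genes (rho 0.04). The H3K27ac medians of the 27 genes for 40S proteins and the 45 for 60S proteins were close, at 6.30 and 6.23 CPM per kb. Of the 81 genes, 28 hold small nucleolar RNA genes, which guide the modification of ribosomal RNA, in the sense orientation. The median H3K27ac level was 7.29 CPM per kb over 27 of these hosts and 5.39 CPM per kb over the 48 other genes. For H3K4me3 the medians were close, at 4.63 CPM per kb over 27 hosts and 4.56 CPM per kb over 49 other genes. Differences between hosts and other genes were not tested.

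The marks extended from the TSS into the transcribed region. H3K4me3 reached a median of 4.55 kb downstream of the canonical TSS, against 2.25 kb over all genes, and 2.07 kb upstream, against 1.59 kb. For H3K27ac the downstream reach was 4.18 kb against 1.75 kb. Ribosomal protein genes are short, with a median length of 5.55 kb against 27.4 kb over all protein-coding genes, and the interval spanned the entire gene at 30 of 76 genes for H3K4me3 and 30 of 75 for H3K27ac, compared with 4.42% and 3.57% of all genes. H3K4me1 lay differently. Its chosen interval covered the canonical TSS at 10 of 57 genes, or 17.5% against 46.8% of all genes, and elsewhere began downstream or ended upstream of it. With the other listed intervals included, a tested interval covered the canonical TSS at 20 of the 57 genes. The share over all genes was not computed for that count.

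**Figure D1:**
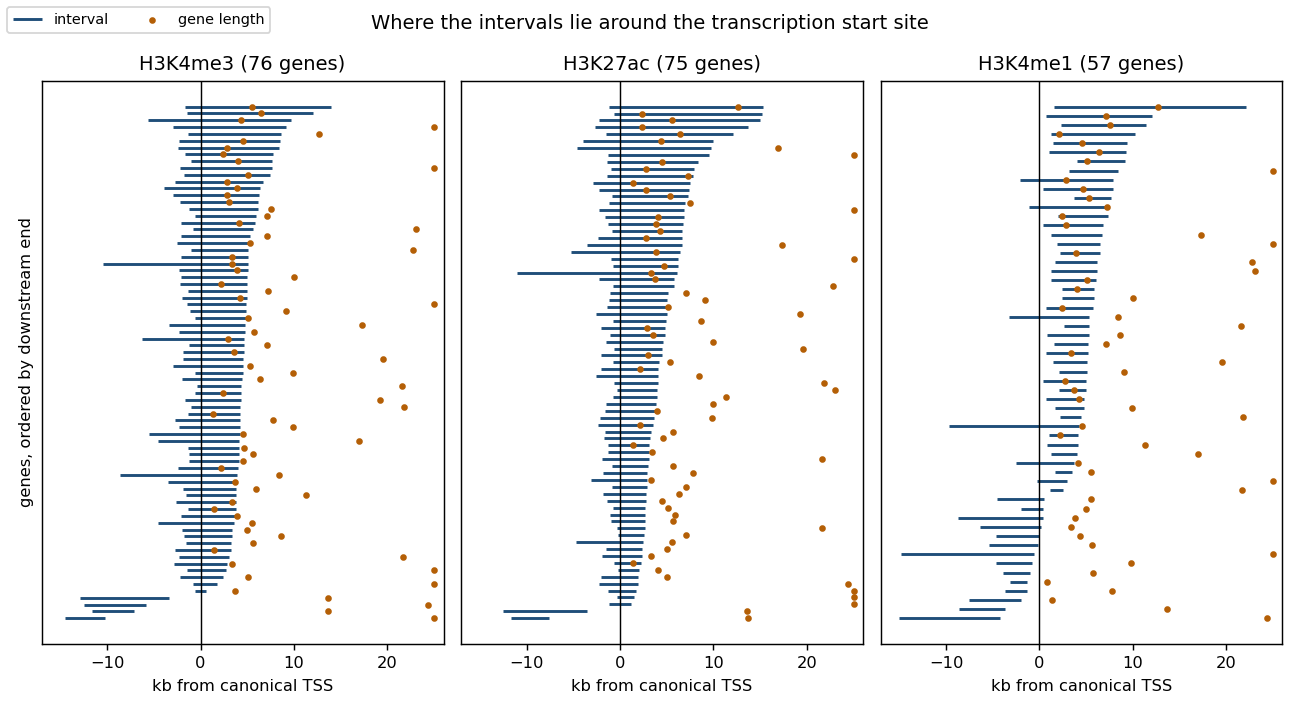
Interval of each ribosomal protein gene relative to its canonical TSS (0, vertical line) in kb, with transcription to the right, ordered by the downstream end. Bars are intervals and points mark the length of the gene, with genes longer than 25 kb drawn at 25 kb. H3K4me3 and H3K27ac bars cross the TSS at 72 of 76 and 73 of 75 genes, while most H3K4me1 bars lie to one side.

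At some genes the chosen interval belonged to a neighbor. The H3K4me3 intervals of RPS29, RPL6 and RPL22 lay 5.87 to 10.3 kb upstream of the canonical TSS, over the starts of LRR1, PTPN11 and RNF207, because a far upstream TSS is annotated for each, and the same held for RPL6 in H3K27ac, which was 3.38 CPM per kb at the canonical TSS. At their canonical TSS, H3K4me3 was 4.92 CPM per kb for RPS29, 3.20 CPM per kb for RPL6 and 4.20 CPM per kb for RPL22. In 33 of the 76 H3K4me3 intervals another protein-coding gene starts as well, and signal cannot be divided between the genes. Without these, the median H3K4me3 level of the ribosomal protein genes was 4.18 CPM per kb over 43 genes.

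The paralogs differed from their parent genes. RPL3L, a form specific to striated muscle, had no interval of its own, as its intervals were those of RPS2 and ended 3.42 kb upstream of its canonical TSS for H3K4me3. RPL10L, a form of the testis, had no H3K4me3 or H3K27ac interval, and RPL10 had 3.25 and 7.29 CPM per kb. RPL39L, also known from the testis and from tumors, was marked in an H3K4me3 interval of 2.56 kb with 4.08 CPM per kb. RPL39 had 2.69 CPM per kb in an interval of 9.22 kb. RPL39L was thus higher per kb only, as RPL39 held more signal over its whole interval. RPL39 lies on chromosome X, where the median of all genes was 2.67 CPM per kb. RPS27L, a p53 target, had 5.83 CPM per kb in H3K4me3 and 7.85 CPM per kb in H3K27ac, above the 2.05 and 3.68 CPM per kb of RPS27. RPS27L and RPL10L are the paralogs shown above without a pyrimidine run. Such a run was also absent at RPL3, RPL6, RPL12, RPL17, RPL32, RPL36, RPS3A, RPS4X and RPS29, so its absence is not particular to the paralogs.

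The comparison of PR-957 with DMSO addresses how PSMB8 inhibition changes histone marks on chromatin. For H3K27ac none of the 75 ribosomal protein genes passed an adjusted p of 0.05 in edgeR's quasi-likelihood test, where 0.48% of all genes passed, and DESeq2 likewise called 0. The values were nevertheless mostly lower in PR-957. The log2 fold change was below 0 at 63 of 75 genes, against 49.8% of all genes, and its median was -0.12, against 0.00 over all genes. At 38 of 75 genes both PR-957 libraries lay below both DMSO libraries, a pattern seen at 19.3% of all genes, and at 4 genes both lay above, against 19.1%. Over the 44 genes whose interval holds no other gene's start, 41 were below 0, with a median of -0.13. An unadjusted p under 0.05 was reached by 16 genes with lower and 1 gene with higher signal, against 5.34% and 4.21% of all genes. The median level of the 75 genes was 6.55 and 6.89 CPM per kb in the DMSO libraries and 5.67 and 5.92 CPM per kb in the PR-957 libraries, whereas over all genes it was 3.96, 4.03, 3.97 and 4.01 CPM per kb. Every one of the 75 genes lay within 1.5-fold of DMSO, as did 11750 of the 12089 genes tested. Genes of the same 4 libraries are not independent replicates, and less signal per cell and fewer cells carrying the mark cannot be told apart.

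**Figure D2:**
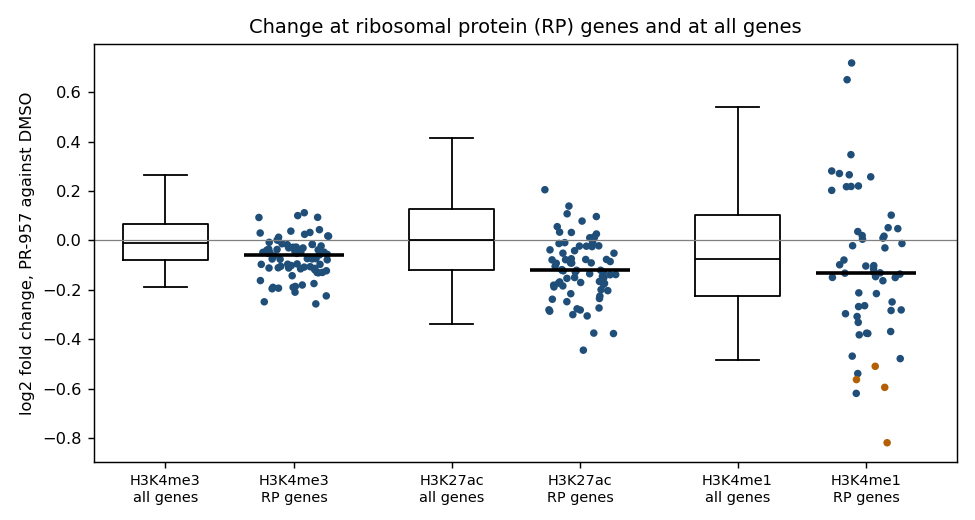
Log2 fold change of PR-957 against DMSO for H3K4me3, H3K27ac and H3K4me1. Boxes show all protein-coding genes with a tested interval (median, quartiles, whiskers from the 5th to the 95th percentile), points the ribosomal protein genes with their median as a bar, and the 4 genes of adjusted p under 0.05 are in orange. The bar lies below the median of all genes for each modification, by most for H3K27ac.

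RPL4, which lines the exit tunnel of the nascent peptide, came closest to the threshold. Its H3K27ac signal was 70.7 and 76.8 CPM in the DMSO libraries and 60.6 and 61.2 CPM in the PR-957 libraries, or -0.27 on the log2 scale (standard error 0.074, edgeR's adjusted p = 0.0799). The interval of 10.8 kb also holds starts of SNAPC5 and ZWILCH. RPSA, the 40S protein that doubles as a laminin receptor, gave 36.9 and 36.7 CPM in DMSO and 26.8 and 29.6 CPM in PR-957, or -0.38 on the log2 scale (standard error 0.11, edgeR's adjusted p = 0.118). RPL9 gave 58.7 and 59.7 CPM in DMSO and 47.7 and 49.8 CPM in PR-957 (adjusted p = 0.148 in edgeR). In each of these genes the treatment groups did not overlap, but they were picked for small p-values, and 19.3% of all genes had this pattern. The most negative fold change belonged to RPL36A on chromosome X, at -0.44 (standard error 0.15, adjusted p = 0.254), and RPS27 had -0.38 (standard error 0.19, adjusted p = 0.613). The most positive were RPL26, which also promotes translation of p53, with 0.21 (standard error 0.17, adjusted p = 0.84), RPL36 with 0.14 (standard error 0.071, adjusted p = 0.623) and RPL22 with 0.11 (standard error 0.13, adjusted p = 0.913).

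Genes for 40S proteins lay lower somewhat more uniformly than those for 60S proteins, although the difference between the subunits was not tested. The H3K27ac log2 fold change was below 0 at 26 of 27 genes of the 40S subunit, with a median of -0.15, and at 34 of 45 genes of the 60S subunit, with a median of -0.09. Among 40S genes, RPS6, the substrate of S6 kinase, had -0.24 (standard error 0.12), RPS3 of the mRNA entry channel -0.19 (standard error 0.10), RPS27A, made as a fusion with ubiquitin, -0.28 (standard error 0.13), RPS19 -0.08 (standard error 0.067) and RPS14 -0.01 (standard error 0.10). RPS19 is the gene most often mutated in Diamond-Blackfan anemia and RPS14 the one lost in the 5q- syndrome. RPS7, singled out after its value was seen, was the 40S gene above 0, at 0.08 (standard error 0.11). Among 60S genes, RPL5 and RPL11, which form a particle with 5S RNA and bind MDM2, had -0.18 (standard error 0.098) and -0.18 (standard error 0.15). RPL3 of the peptidyl transferase center had -0.09 (standard error 0.080) and RPL10 -0.01 (standard error 0.082). The stalk proteins, which recruit elongation factors, had -0.02 (RPLP0), -0.17 (RPLP1) and 0.03 (RPLP2). None of these genes passed the test.

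**Figure D3:**
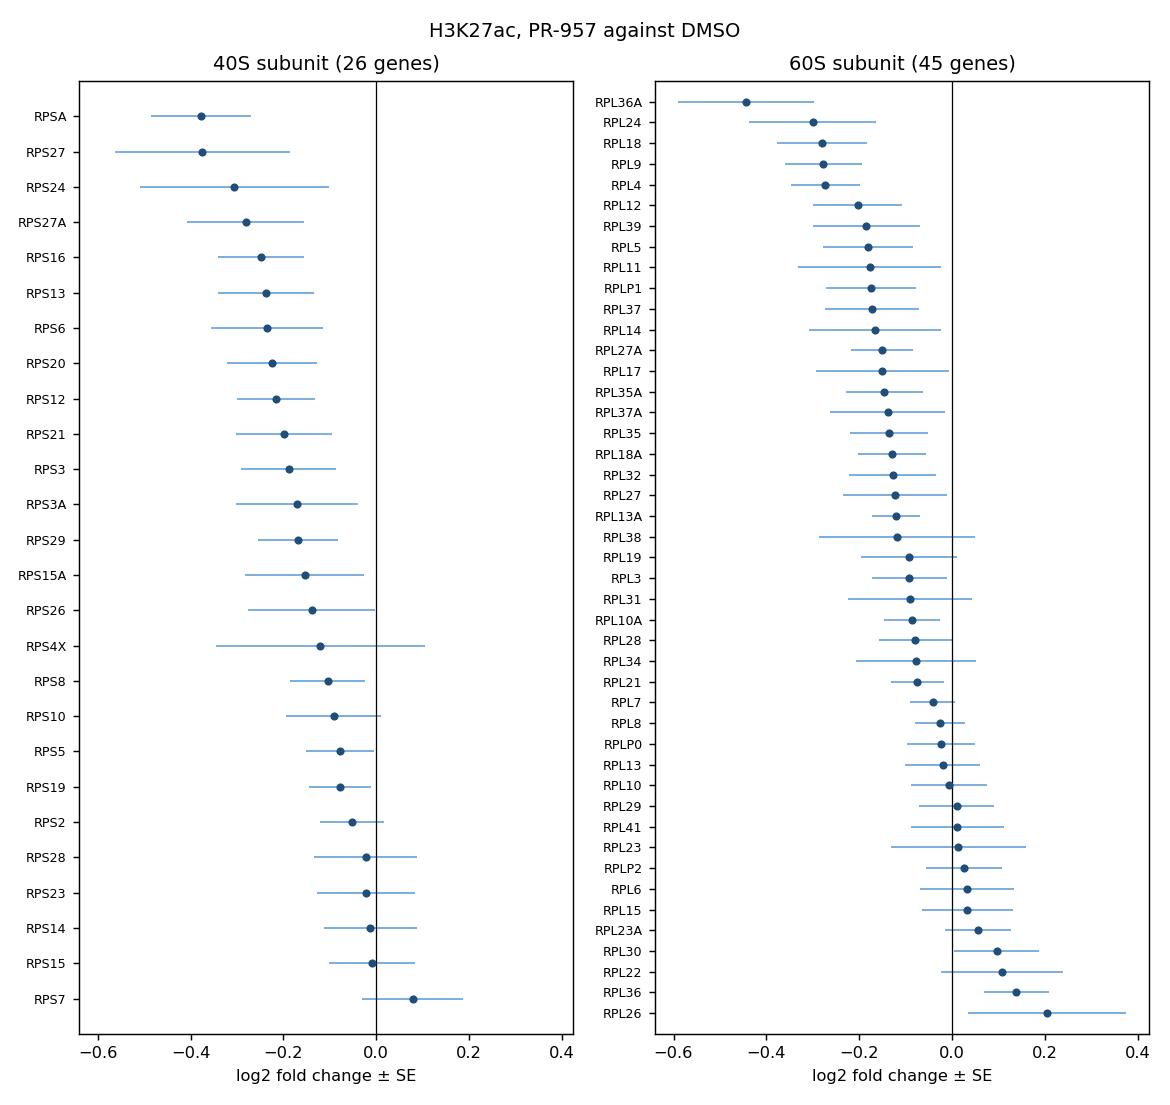
H3K27ac log2 fold change of PR-957 against DMSO with its standard error (edgeR, 2 libraries per treatment) for genes of the 40S subunit (left, 26 of 27 genes) and the 60S subunit (right, 45 genes). Most points lie left of 0 and their error bars overlap one another widely.

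For H3K4me3 none of 76 genes was called by edgeR, against 0.219% of all genes, and DESeq2 called 0. Unadjusted p-values under 0.05 were reached by 10 genes with lower and 0 with higher signal, against 4.35% and 3.69% of all genes. The log2 fold change was below 0 at 62 of 76 genes, against 53.7% of all genes, with a median of -0.06 against -0.01, and both PR-957 libraries lay below both DMSO libraries at 25 of 76, against 21% of all genes, and above both at 2, against 16.9%. This median rested partly on 1 library, as it became -0.13 when PR-957 replicate 2 was left out and -0.018 when replicate 1 of that group was left out. Among the lowest values were those of RPS15A (-0.26, standard error 0.083, adjusted p = 0.231) and RPL12 (-0.22, standard error 0.074, adjusted p = 0.249), and the highest those of RPL6 (0.11, in the interval at PTPN11), RPL17 (0.10) and RPL14 (0.09). RPL12, a protein of the stalk base, gave 42.2 and 42.2 CPM in DMSO against 31.8 and 40.4 CPM in PR-957, so that a single library stood apart, and it was called (adjusted p = 0.00358 in edgeR) only without PR-957 replicate 2.

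Near 4 of the 57 genes with an H3K4me1 interval, the signal was lower in PR-957 at an adjusted p under 0.05 in edgeR, and near none was it higher. This is 7.02% of the genes, against 2.15% of all genes called in either direction and 1.45% called lower. Both PR-957 libraries lay below both DMSO libraries at 19 of 57 genes, a share near the 32.5% of all genes. The log2 fold change was below 0 at 38 of 57, against 62.1%, and unadjusted p-values under 0.05 were reached by 10 genes with lower and 1 gene with higher signal, against 12.1% and 4.8% of all genes. The median log2 fold change was -0.13, against -0.08 over all genes with an H3K4me1 interval.

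RPL19, a protein of the 60S subunit, gave 26.4 and 28.0 CPM in the DMSO libraries and 19.6 and 18.7 CPM in the PR-957 libraries (log2 fold change -0.51, standard error 0.12, adjusted p = 0.00492 in edgeR). Its interval of 14.0 kb on chromosome 17 (39190569 to 39204522, hg38) crosses the TSS shown above and extends upstream to the start of CACNB1. RPL28, also of the 60S subunit, gave 11.2 and 11.9 CPM against 7.32 and 7.91 CPM (-0.59, standard error 0.15, adjusted p = 0.0111 in edgeR), in an interval that began 1203 bp downstream of the TSS (chromosome 19, 55387135 to 55392575). RPS28, of the 40S subunit, gave 4.47 and 5.52 CPM against 3.08 and 2.61 CPM (-0.82, standard error 0.23, adjusted p = 0.0309 in edgeR), in an interval 971 bp downstream (chromosome 19, 8322467 to 8325661). In these 3 genes the groups did not overlap, but they were picked as called genes, and 32.5% of all genes had this pattern. The raw counts behind the RPS28 values were 48 to 132 per library.

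**Figure D4:**
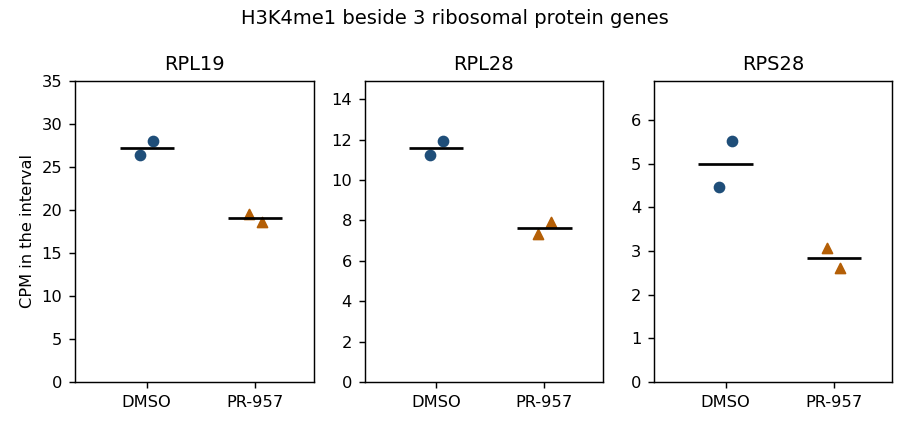
H3K4me1 signal (CPM in the interval, axes from 0) in each DMSO library (circles) and PR-957 library (triangles) at RPL19, RPL28 and RPS28, with group means as bars (n = 2). The PR-957 libraries lie below the DMSO libraries in each panel.

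The calls depended on the setting. The fold changes given for the 3 genes kept their direction, but this is no support. The genes were picked as called lower, and each setting refits the same counts. When the fold changes were corrected for GC content, a setting added once the data had been seen, 0 of the 4 passed, with log2 fold changes of -0.40 for RPL19 (adjusted p = 0.0639), -0.49 for RPL28 (adjusted p = 0.0659) and -0.72 for RPS28 (adjusted p = 0.0907). DESeq2 called 0, with -0.51 for RPL19 and -0.60 for RPL28. With library size alone RPL19 and RPL28 passed. Without DMSO replicate 1 only RPL19 passed, without PR-957 replicate 2 only RPL28, and without DMSO replicate 2 or PR-957 replicate 1 none. Genes of chromosome 19, which carries RPL28 and RPS28, had a median H3K4me1 log2 fold change of -0.16 over all 774 genes with an interval, and 2.97% of the genes tested there were called lower. At the 3 genes described H3K4me3 and H3K27ac had log2 fold changes of -0.05 and -0.09 (RPL19), -0.075 and -0.079 (RPL28) and -0.06 and -0.02 (RPS28), none of them called.

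Of the other genes, RPL29 (-0.62, adjusted p = 0.0540) and RPL22 (-0.38, adjusted p = 0.0848) came next and are named for these p-values. RPL22, whose loss is recurrent in T-cell leukemia, was represented by the interval at RNF207. RPL10L (0.72, standard error 0.33), RPL15 (0.65, standard error 0.46) and RPL36 (0.35, standard error 0.30) had the highest values, all from weak intervals of at most 2.44 CPM on average, and none passed. RPS19 had the highest H3K4me1 level by far, at 4.16 CPM per kb in an interval 20.6 kb wide, 1568 bp downstream of its TSS, that also holds the start of the B-cell gene CD79A, with 98.9 and 87.6 CPM in DMSO and 75.0 and 80.3 CPM in PR-957 (-0.26, adjusted p = 0.246). Another listed interval of RPS19, 14.8 kb wide and over its canonical TSS, had 4.66 CPM per kb (log2 fold change -0.22, adjusted p = 0.34 in edgeR). Among the chosen intervals, RPL37A (2.76 CPM per kb) and RPL8 (1.99 CPM per kb) followed. The lowest levels were those of RPL39L (0.512 CPM per kb), RPL15 (0.538 CPM per kb) and RPL31 (0.577 CPM per kb).

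H3K27me3 was 17.1 and 20.1 CPM in DMSO and 22.1 and 20.6 CPM in PR-957 in the interval upstream of RPL38 (log2 fold change 0.19, adjusted p = 0.581), and was not called, while 11.8% of all genes with a tested H3K27me3 interval were. With a window of 5 kb, 4 ribosomal protein genes had an interval. Those near RPS15 (0.16, adjusted p = 0.00976 in edgeR) and RPS19 (0.56, adjusted p = 0.0461 in edgeR) were called higher in PR-957. The share of all genes called was not computed for that window, so these 2 calls have no background beside them.

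Genes that share functions or the TOP motif with the ribosomal proteins were examined as lists. Of 7 ribosomal proteins outside the symbol rule, among them FAU and RACK1, all had H3K27ac intervals, with a median log2 fold change of -0.08 and 5 below 0. Of 17 translation factors and other genes with TOP mRNAs, 15 had H3K27ac intervals, with a median of -0.01 and 9 below 0. HNRNPA1, an RNA-binding protein with a TOP mRNA, was closest to the threshold in that list (-0.23, adjusted p = 0.0817). Of 30 genes for ribosome assembly and RNA polymerase I, 28 had H3K27ac intervals, with a median of 0.00 and 14 below 0. NPM1, the nucleolar chaperone, had the smallest p-value there (-0.31, adjusted p = 0.138). edgeR and DESeq2 called 0 genes of the 3 lists in any modification, and in H3K27ac an unadjusted p under 0.05 was reached by 0, 3 and 3 genes with lower and by 0, 0 and 1 with higher signal. H3K27ac differences between these lists and the ribosomal protein genes were not tested.

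The labelled cell line was checked against myeloid genes. H3K4me3 intervals lay at 6 of 7 myeloid genes (SPI1, CEBPA, CD33, FLT3, CSF1R and LYZ, but not MPO) and H3K27ac intervals at all 7. None of the 7 was called by edgeR or DESeq2 in H3K27ac, 1 had an unadjusted p under 0.05, and their median H3K27ac log2 fold change was -0.10, with 6 of 7 below 0 and both PR-957 libraries below both DMSO libraries at 4. Of genes of other lineages, CD3E, GATA1 and ALB had neither and COL1A1 had a low H3K4me3 level of 1.36 CPM per kb. Library totals ran from 9885836 to 14165777 counts for H3K27ac and from 10032503 to 12047958 for H3K27me3, with the treatments overlapping. For H3K4me3 they were 44591150 and 42037643 in DMSO and 30070119 and 30454212 in PR-957. For H3K4me1 they were 30584219 and 23874111 in DMSO and 15204186 and 22790073 in PR-957. For H3K4me3 and H3K4me1 depth thus ran with treatment, each PR-957 library being smaller than each DMSO library. Its part in the lower PR-957 values was not tested. Raw counts in the intervals of ribosomal protein genes ranged from 43 to 7777 for H3K4me3, 60 to 2406 for H3K27ac and 17 to 2921 for H3K4me1 per library.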

How the data were processed

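Cut&Tag reads were aligned to hg38 by the authors. The submitters' processing notes name Trimmomatic 0.39, Bowtie2 2.2.5, Picard 2.27.1, SAMtools 1.7, SEACR 1.3 and deepTools 3.5.1. The authors deposited raw counts per interval, one list per modification, and the sources used here do not say how reads were counted or whether duplicates were removed. The listed intervals overlap: 59230 for H3K4me3 form 16123 separate stretches, 74559 for H3K27ac 30670, 108165 for H3K4me1 34932 and 33437 for H3K27me3 13899. Adjusted p-values are therefore not over independent intervals.

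Counts were filtered (filterByExpr, minimum count 10), normalized by TMM and tested by edgeR 4.0.16 in R 4.3.3, within each modification, on all intervals with Benjamini-Hochberg adjustment at 0.05. Folds are edgeR's. Intervals were matched to GENCODE release 44 in Python 3.11.15, coordinates being as the files list them. Alternatives were median-of-ratios factors, library size, cyclic loess offsets, DESeq2 1.42.0, count filters, chromosomes, windows, the replicate number as a block, other choices of interval and leaving out each library. The GC trend, intervals over the canonical TSS and intervals free of other TSS were added after seeing the data. The members and lists were chosen with earlier results of these data known. Genes are named if called, at the extremes of level or fold, without an interval, or on a fixed list. The scripts were tested on simulated data. With 2 libraries against 2, the smallest exact permutation p is 0.333. Values of some genes are not reported here, while counts and medians include them.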

Additional observations from a re-analysis of the deposited data

How the results depend on the processing

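For H3K27ac, 0 genes were called under each alternative, which says little about stability with 2 libraries per group and changes within 1.5-fold. The median log2 fold change of the ribosomal protein genes stayed between -0.15 and -0.09, including -0.10 with the trend on GC content removed and -0.10 with cyclic loess offsets. Leaving out 1 library gave -0.15 to -0.09 for H3K27ac, -0.13 to -0.018 for H3K4me3, -0.23 to -0.12 for H3K4me1 and 0.07 to 0.30 for the single H3K27me3 gene, and 0 to 1 called genes for H3K4me3 (RPL12) and 0 to 1 for H3K4me1. For H3K4me1, 4 genes became 2 with library size only, 0 with DESeq2, 0 with the GC trend removed and 1 with intervals over the canonical TSS, while the log2 fold change of RPL19 was -0.46, -0.51, -0.40 and -0.51 and that of RPL28 -0.55, -0.60, -0.49 and -0.33. RPS28 has no DESeq2 adjusted p. For H3K27me3, a window of 5 kb gave 2 called genes of 4 with an interval, without a share over all genes for that window. The level was then 3.71 CPM per kb, and library size only gave a log2 fold change of 0.35. The median level depended on the choice of interval. With the interval of highest count per kb it was 5.81 CPM per kb for H3K4me3, 9.32 for H3K27ac, 1.21 for H3K4me1 and 2.40 for H3K27me3. For H3K4me3 it was 4.18 CPM per kb without intervals that hold another TSS. For H3K4me1 it was 0.991 CPM per kb with a window of 1 kb, 0.998 with 5 kb and 1.03 over the canonical TSS, and leaving out 1 library gave 0.902 to 0.975. Levels of all genes under these alternatives are not given here, so the moved values cannot be set against the all-gene medians above. The cause of these moves was not tested.

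With the replicate number as a block, 4 genes were called in H3K4me1 and the medians were -0.06 for H3K4me3, -0.12 for H3K27ac and -0.13 for H3K4me1, so that the block changed no call. With 2 pairs, the correlation of deviations of same-numbered libraries was 0.167 for H3K4me3, -0.0089 for H3K27ac and 0.0068 for H3K4me1, and the numbers were not taken to pair the libraries. Depth limits the weak H3K4me1 intervals, whose counts went down to 17 per library.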
